A study of Ovis aries with 8 samples.

Results

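The genes described here encode the sirtuins, SIRT1 to SIRT7, and the NAD salvage enzymes NAMPT and NMNAT1. They were taken by symbol from a list of 10 genes fixed by name, and 9 of the 10 matched a row of a table of 27057 rows. The tenth, NNMT, matched no symbol and was not analysed here. The libraries were 4 of cultured fetal sheep hepatocytes treated with metformin, an antidiabetic biguanide, for 24 h and 4 of basal cells without it. The labels number 4 cell preparations, each with 1 metformin and 1 basal library. The labels and design text read here state no fetal age, breed, dose or vehicle, and do not say whether preparations came from separate animals. P-values of the blocked fit therefore measure the spread of the metformin change between preparations, which may or may not be that between animals.

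Sirtuins are deacylases that consume NAD each time they remove an acetyl or related group from a protein, and they release nicotinamide. NAMPT, the rate-limiting salvage enzyme, turns nicotinamide into nicotinamide mononucleotide, and NMNAT1, the nuclear adenylyltransferase, turns that into NAD. In liver these enzymes link the supply of NAD to gluconeogenesis, fatty acid oxidation and the clock. SIRT1, SIRT6 and SIRT7 are mainly nuclear, SIRT2 is mainly cytosolic, and SIRT3, SIRT4 and SIRT5 are mitochondrial. The roles given here are known mostly from human and mouse.

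Values are FPKM, fragments scaled to the length of the transcript and the depth of the library, so levels of different genes can be set side by side. How many reads lie behind each value is unknown, and in bulk libraries fewer cells of a type and less RNA per cell cannot be told apart. Log2 changes are of FPKM + 1, metformin minus basal, from limma with the preparation as a block, and a change was called at a Benjamini-Hochberg adjusted p under 0.05. All 9 genes were at 1 FPKM or more in all 8 libraries. With metformin 3 of the 9 rose, NAMPT, SIRT1 and SIRT2, and 2 fell, SIRT3 and SIRT6. The other 4, NMNAT1, SIRT4, SIRT5 and SIRT7, did not pass. Among the 13141 genes tested, 19.8% rose and 24.1% fell, 43.9% in all. Called changes were thus common in these cells, and 5 of 9 is read against that background. Metformin and basal libraries did not overlap for 3 of the 9 genes, NAMPT, SIRT1 and SIRT6, against 25.9% of all genes tested. In all 4 preparations 7 of the 9 genes moved in 1 direction, against 60.2% of all genes tested.

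NAMPT had 53.6, 49.0, 41.1 and 65.9 FPKM in the metformin libraries of preparations 1 to 4, against 28.8, 19.3, 22.4 and 25.2 FPKM in the basal libraries. Every metformin library lay above every basal library. The mean was 52.4 ± 10.4 FPKM with metformin and 23.9 ± 4.02 FPKM in basal cells (SD, n = 4 each). The log2 change was 1.09 ± 0.13 (SE, limma adjusted p = 0.00158). The ratio of the metformin to the basal library was 1.86, 2.53, 1.83 and 2.61 in preparations 1 to 4. Of the genes tested, 3.76% had a log2 change at least as high as that of NAMPT. The authors' deposited table gives a fold change of 2.19, p = 0.00386 and q = 0.0285 for this gene. For the other called genes the authors' q was 0.0408 for SIRT1 and 0.0792 for SIRT2, so SIRT2 did not pass 0.05 there. The authors gave no q for SIRT3 or SIRT6. Before adjustment SIRT6 passed 0.05 in the authors' values, and SIRT3 did not. The call of NAMPT held under all 13 alternative settings, with a log2 change between 0.98 and 1.17 over all 14 settings.

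NMNAT1, the enzyme that follows NAMPT in the pathway, had 32.96, 32.3, 24.2 and 23.4 FPKM with metformin, against 38.4, 35.4, 31.9 and 33.7 FPKM in basal libraries. It was lower with metformin in each preparation, yet the groups overlapped. Its log2 change was -0.31 ± 0.11 (SE, limma, 95% interval -0.57 to -0.05, adjusted p = 0.0585), which did not pass. It passed in 3 of 14 settings: with quantile normalization (adjusted p = 0.0209), the median of ratios (0.0270) and a mean FPKM of at least 5 (0.0477). Over all 14 settings its adjusted p ranged from 0.0209 to 0.184. The ratio of NAMPT to NMNAT1 within a library, which a single scaling factor per library does not alter, was 1.62, 1.52, 1.70 and 2.81 with metformin and 0.749, 0.545, 0.702 and 0.749 in basal cells. Per length, NAMPT transcript was thus above NMNAT1 in every metformin library and below it in every basal library. An exact sign-flip test over the 4 preparations gave p = 0.125, the smallest that it can give.

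**Figure D1:**
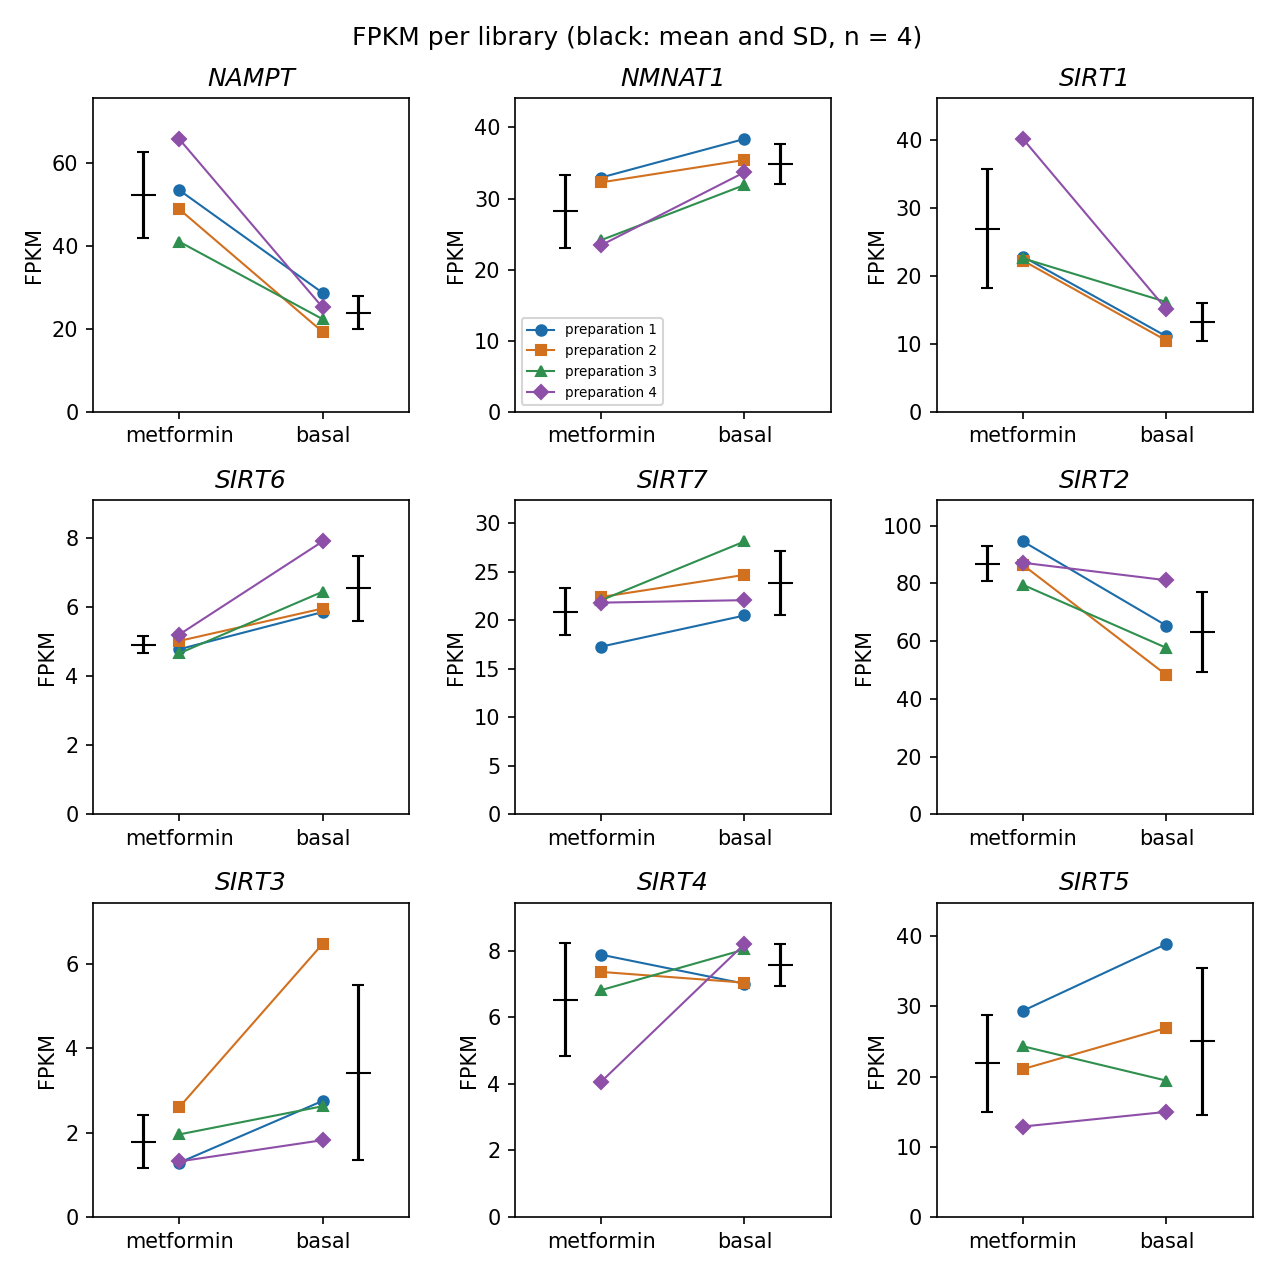
FPKM of each gene in the 4 metformin libraries (left of each panel) and the 4 basal libraries (right), with lines joining the libraries of 1 preparation and black bars for the mean and SD (n = 4). NAMPT, SIRT1 and SIRT6 show no overlap between metformin and basal libraries, and SIRT3 spreads from 1.82 to 6.48 FPKM in basal cells.

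SIRT1, the nuclear deacetylase that acts on the coactivator PPARGC1A and on FOXO factors, had 22.8, 22.2, 22.6 and 40.1 FPKM with metformin, against 11.1, 10.5, 16.1 and 15.1 FPKM in basal libraries. No metformin library reached down to the basal range, and preparation 4 stood above the other metformin libraries. The means were 26.9 ± 8.79 FPKM with metformin and 13.2 ± 2.83 FPKM in basal cells (SD, n = 4 each), a log2 change of 0.95 ± 0.16 (SE, limma adjusted p = 0.00403). Without preparation 4 the log2 change was 0.82 (adjusted p = 0.0163, range 0.00173 to 0.0237 over all 14 settings). The call held under each alternative. A log2 change at least as high was seen in 5.24% of genes tested.

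SIRT6, a nuclear deacylase of histone H3 tied to glycolytic gene repression and genome maintenance, was among the lowest of the family. It had 4.78, 5.02, 4.66 and 5.20 FPKM with metformin, against 5.86, 5.96, 6.45 and 7.90 FPKM in basal libraries. The groups did not overlap, and the gap between them was under 1 FPKM. Its log2 change was -0.34 ± 0.12 (SE, limma adjusted p = 0.0494). This call lies at the threshold: it passed in 4 of 14 settings, and adjusted p ranged from 0.0352 to 0.233. With quantile normalization the log2 change was -0.17.

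SIRT7, a nucleolar deacylase linked to ribosomal RNA transcription, had 17.3, 22.4, 22.1 and 21.8 FPKM with metformin, against 20.5, 24.7, 28.1 and 22.1 FPKM in basal libraries. Each preparation was lower with metformin, in preparation 4 by little. The log2 change of -0.18 (95% interval -0.43 to 0.07, limma adjusted p = 0.205) did not pass in any of the 14 settings. Within a library the ratio of SIRT1 to SIRT7 was 1.32, 0.993, 1.02 and 1.84 with metformin and 0.542, 0.425, 0.574 and 0.684 in basal cells. The ratio of SIRT1 to SIRT6 averaged 5.44 ± 1.52 with metformin and 2.02 ± 0.332 in basal cells (SD, n = 4 each) and was higher in 4 of 4 preparations. Both ratios gave p = 0.125 in the exact sign-flip test. Among the nuclear sirtuins SIRT1 was thus higher with metformin in each preparation, and SIRT6 and SIRT7 were lower in each.

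SIRT2, the cytosolic deacetylase of tubulin and of metabolic enzymes, had 94.5, 86.4, 79.5 and 87.1 FPKM with metformin, against 65.4, 48.3, 57.7 and 81.1 FPKM in basal libraries. It was higher with metformin in each preparation, by a ratio of 1.45, 1.79, 1.38 and 1.07 in preparations 1 to 4, and the groups overlapped. The log2 change was 0.48 ± 0.14 (SE, limma adjusted p = 0.0275). The call passed in 9 of 14 settings. It ended without the preparation block (adjusted p = 0.0759), without the filter on low values (0.0553) and without preparation 1 (0.0940), 2 (0.0787) or 3 (0.0664); over all settings adjusted p ranged from 0.0121 to 0.0940.

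**Figure D2:**
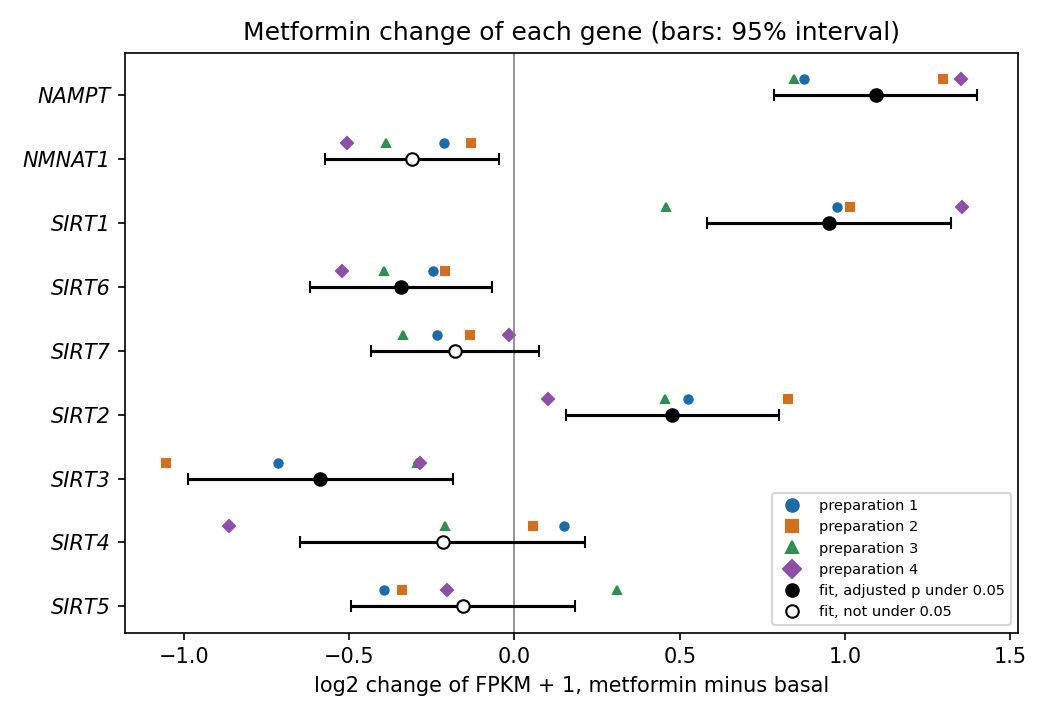
Log2 change of FPKM + 1 (metformin minus basal) for each gene, with the limma estimate and its 95% interval in black, filled where adjusted p was under 0.05, and the 4 preparations as coloured symbols above it. NAMPT (1.09), SIRT1 (0.95) and SIRT2 (0.48) lie right of 0, and SIRT3 (-0.59) and SIRT6 (-0.34) lie left of it.

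The mitochondrial sirtuins gave 1 call among 3 genes. SIRT3, the main mitochondrial deacetylase, had the lowest level of all 9 genes, with 1.29, 2.60, 1.96 and 1.32 FPKM with metformin, against 2.75, 6.48, 2.63 and 1.82 FPKM in basal libraries. It was lower with metformin in each preparation, the groups overlapped, and the basal library of preparation 2 lay far above the others. The log2 change was -0.59 ± 0.17 (SE, limma adjusted p = 0.0287), on a scale that understates changes at such low FPKM. The call passed in 8 of the 13 settings that tested it. It ended without the block (adjusted p = 0.213), without the filter (0.0660), with quantile normalization (0.126) and without preparation 1 (0.0938) or 2 (0.101), over a range from 0.0222 to 0.213. Under quantile normalization the log2 change was -0.38, and with a pseudocount of 5 it was -0.29.

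SIRT4, known for its action on glutamate dehydrogenase and on malonyl-CoA decarboxylase, had 7.89, 7.37, 6.82 and 4.06 FPKM with metformin, against 7.02, 7.05, 8.05 and 8.21 FPKM in basal libraries. Preparations 1 and 2 were higher with metformin, and preparations 3 and 4 were lower. The log2 change was -0.22 (95% interval -0.65 to 0.21, limma adjusted p = 0.360), and without preparation 4 it was -0.0012. SIRT5, the desuccinylase that acts on the urea cycle enzyme CPS1, had 29.4, 21.1, 24.3 and 12.9 FPKM with metformin, against 38.9, 26.9, 19.4 and 14.97 FPKM in basal libraries. It was lower in 3 preparations and higher in preparation 3, with metformin to basal ratios of 0.755, 0.782, 1.25 and 0.860 in preparations 1 to 4. Its spread between preparations, which the block takes out, was wider than the difference between groups. Its log2 change was -0.16 (95% interval -0.50 to 0.18, limma adjusted p = 0.399). Neither gene passed in any of the 14 settings.

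The summed FPKM of the 7 sirtuins was 178.0, 167.1, 161.9 and 172.5 with metformin, against 151.5, 129.9, 138.5 and 151.2 in basal libraries. The sums did not overlap, and the exact sign-flip p was 0.125, the smallest possible. SIRT2 alone made up 51.1% ± 1.71 of that sum with metformin and 43.9% ± 6.97 in basal cells (SD, n = 4 each). SIRT1 made up 15.8% ± 4.97 with metformin and 9.26% ± 1.95 in basal cells, higher in 4 of 4 preparations. The 3 mitochondrial sirtuins together made up 21.7%, 18.6%, 20.4% and 10.6% with metformin, against 32.1%, 31.2%, 21.7% and 16.5% in basal libraries. That share was lower with metformin in every preparation (exact sign-flip p = 0.125), whereas their summed FPKM was lower in 3 and higher in preparation 3, at 33.1 FPKM with metformin and 30.1 FPKM in basal cells (exact sign-flip p = 0.25). The share of the 3 nuclear sirtuins was higher in 2 preparations and lower in 2 (exact sign-flip p = 0.875).

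**Figure D3:**
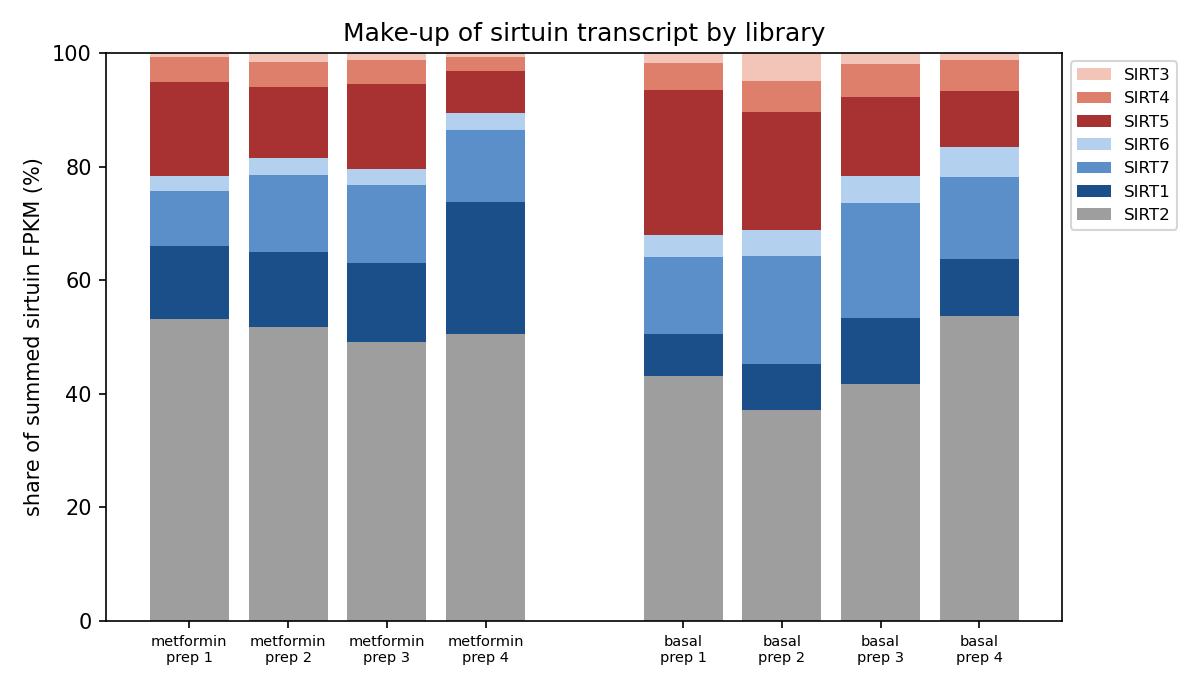
Share of each sirtuin in the summed sirtuin FPKM (percent) in each library, with the 4 metformin libraries on the left and the 4 basal libraries on the right. The mitochondrial sirtuins (reds) took 10.6% to 21.7% with metformin and 16.5% to 32.1% in basal libraries, and SIRT1 (dark blue) took more of the sum with metformin in each preparation.

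With metformin the order of mean levels was SIRT2, NAMPT, NMNAT1, SIRT1, SIRT5, SIRT7, SIRT4, SIRT6 and SIRT3. The ranges over the 4 metformin libraries overlapped between neighbours from NMNAT1 to SIRT7 and between SIRT4 and SIRT6, so these neighbours did not differ beyond their spread. In basal cells the order was SIRT2, NMNAT1, SIRT5, NAMPT, SIRT7, SIRT1, SIRT4, SIRT6 and SIRT3. Here neighbours from NMNAT1 to SIRT7 overlapped, as did those from SIRT4 to SIRT3. SIRT2 was clear of the gene below it in both groups. NAMPT stood in position 2 with metformin and 4 in basal cells, and SIRT1 in position 4 with metformin and 6 in basal cells.

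Other routes to NAD were examined from lists of the pathway, which were chosen with earlier results of these data known. The de novo route makes NAD from tryptophan. Of its 7 tested genes 6 fell and 1 rose (100% called, against 43.9% of all genes tested). The median log2 change of the list was -0.91, against -0.04 over all genes tested. QPRT, also listed for this route, matched no symbol, and IDO1 did not pass the filter on low values, so neither was tested. ACMSD, which diverts the route away from NAD, averaged 1.39 ± 0.689 FPKM with metformin and 5.26 ± 2.37 FPKM in basal cells (SD, n = 4 each; log2 change -1.36, limma adjusted p = 0.00114). HAAO, the dioxygenase that makes the precursor of quinolinate, averaged 70.6 ± 41.2 FPKM with metformin and 140.0 ± 94.5 FPKM in basal cells (-0.91, adjusted p = 0.00318). KMO, the hydroxylase upstream of it, averaged 3.01 ± 1.08 FPKM with metformin and 5.84 ± 2.24 FPKM in basal cells (-0.75, adjusted p = 0.00426). The calls of HAAO and KMO ended without the block (adjusted p = 0.229 and 0.105). The gene that rose was IDO2, an indoleamine dioxygenase, named after its value was seen (log2 change 0.68, adjusted p = 0.0163). Without the block 2 genes of the route fell and 0 rose. With a mean FPKM of at least 5 also 2 fell, but ACMSD and KMO, of lower mean, were not tested there. Under the other alternatives 4 to 6 fell. The rise of IDO2 was not called without preparation 3 or 4.

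Among 5 other tested enzymes of NAD synthesis 3 fell and 1 rose (80% called, against 43.9% of all genes tested). Their median log2 change was -0.40. NAPRT, also listed, matched no symbol and was not analysed here. NMRK1 and NMRK2 are the kinases that take nicotinamide riboside into the pathway at the product of NAMPT. NMRK1 averaged 18.1 ± 4.61 FPKM with metformin and 36.6 ± 5.57 FPKM in basal cells (SD, n = 4 each), a log2 change of -0.998 (limma adjusted p = 0.00356). NMRK2 averaged 4.96 ± 0.741 FPKM with metformin and 2.29 ± 1.76 FPKM in basal cells, a log2 change of 0.99 (adjusted p = 0.0312) seen in 3 of 4 preparations. The call of NMRK2 ended without the block (adjusted p = 0.0664), without the filter (0.0946) and without preparation 1 (0.0882), 2 (0.114) or 3 (0.0925). NADSYN1, the amidating enzyme that completes NAD in the de novo and nicotinic acid routes, averaged 4.22 ± 1.12 FPKM with metformin and 9.53 ± 4.26 FPKM in basal cells (-0.96, adjusted p = 0.00613). The other isoenzymes of NMNAT1, NMNAT2 and NMNAT3, and the enzyme PNP were named after their values were seen. NMNAT2 and NMNAT3 had log2 changes of -0.40 and 0.44, with limma adjusted p of 0.0488 and 0.113. The call of NMNAT2 lies at the threshold, at means of 1.45 FPKM with metformin and 2.25 FPKM in basal cells. PNP, which releases nicotinamide from its riboside, was listed at 0 in all libraries. Whether its transcript was absent or was missed in the processing was not tested. For this list 0 genes rose and 2 fell without the block and without preparation 1, 2 or 3, whereas 2 rose and 2 fell without preparation 4. Falls also numbered 2 with a pseudocount of 0.1 or 5, without the filter and with quantile normalization. NMRK1 and NADSYN1 kept their calls in each of these fits, so the fall lost was that of NMNAT2.

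NNMT itself was not analysed, but genes around nicotinamide clearance and methyl supply were. Of 5 tested, 4 fell and 1 rose (100% called, against 43.9% of all genes tested), with a median log2 change of -0.82. AOX1, the oxidase that turns methylnicotinamide into pyridones, averaged 13.7 ± 7.11 FPKM with metformin and 49.2 ± 22.6 FPKM in basal cells (SD, n = 4 each; log2 change -1.80, limma adjusted p = 0.00111). MAT1A and MAT2A make the methyl donor S-adenosylmethionine. MAT1A averaged 8.72 ± 6.53 FPKM with metformin and 82.9 ± 67.7 FPKM in basal cells (-2.96, adjusted p = 0.000683), and MAT2A averaged 22.9 ± 5.59 FPKM with metformin and 40.4 ± 6.24 FPKM in basal cells (-0.82, adjusted p = 0.00248).

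The other NAD consumers, the poly- and mono-ADP-ribosyltransferases, tankyrases and NAD glycohydrolases, gave 6 rises and 6 falls among 16 tested genes. These calls were 75% of the list, against 43.9% of all genes tested, and the median log2 change was -0.19. CD38, also listed, matched no symbol and was not analysed here. PARP6, a mono-ADP-ribosyltransferase, averaged 22.1 ± 2.52 FPKM with metformin and 8.95 ± 1.14 FPKM in basal cells (SD, n = 4 each), a log2 change of 1.21 (limma adjusted p = 0.000925). SARM1, a NAD glycohydrolase known from axon degeneration, averaged 7.16 ± 1.25 FPKM with metformin and 16.4 ± 4.49 FPKM in basal cells (-1.07, adjusted p = 0.00177). PARP14 had a log2 change of -0.79 (adjusted p = 0.00235, and 0.262 without the block). PARP1, the main consumer in DNA repair, named after its value was seen, averaged 37.7 ± 5.57 FPKM with metformin and 63.2 ± 4.62 FPKM in basal cells (-0.74, adjusted p = 0.00359). Without the block 3 consumers rose and 3 fell. Rises numbered 1, 2, 4 and 3 without preparations 1 to 4 in turn and 3 without the filter.

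Genes of NADP synthesis and NAD breakdown gave 1 rise and 2 falls among 7 tested, or 0 rises and 1 fall without the block. Without preparation 2 or 4, 1 fell. The transporters listed with them, SLC25A51 and SLC12A8, matched no symbol and were not analysed here. At 42.9% the share called was that of the background, 43.9%. NNT, the mitochondrial transhydrogenase that passes hydride between NADH and NADP, averaged 25.3 ± 1.73 FPKM with metformin and 44.8 ± 10.3 FPKM in basal cells (SD, n = 4 each; log2 change -0.78, limma adjusted p = 0.00543). NOCT, the clock-driven phosphatase of NADP, had a log2 change of 0.74 (adjusted p = 0.00603, and 0.152 without the block). NUDT13, a mitochondrial pyrophosphatase that cleaves NADH, had a log2 change of -0.68 (adjusted p = 0.0244). Its call ended without the block (adjusted p = 0.329), without the filter (0.0712), with quantile normalization (0.0948) and without preparation 2 (0.0847) or 4 (0.0833). NADK, the cytosolic kinase that makes NADP, had 109.7 ± 10.4 FPKM with metformin and 105.7 ± 18.0 FPKM in basal cells and did not pass (adjusted p = 0.629); this gene was named after its value was seen.

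**Figure D4:**
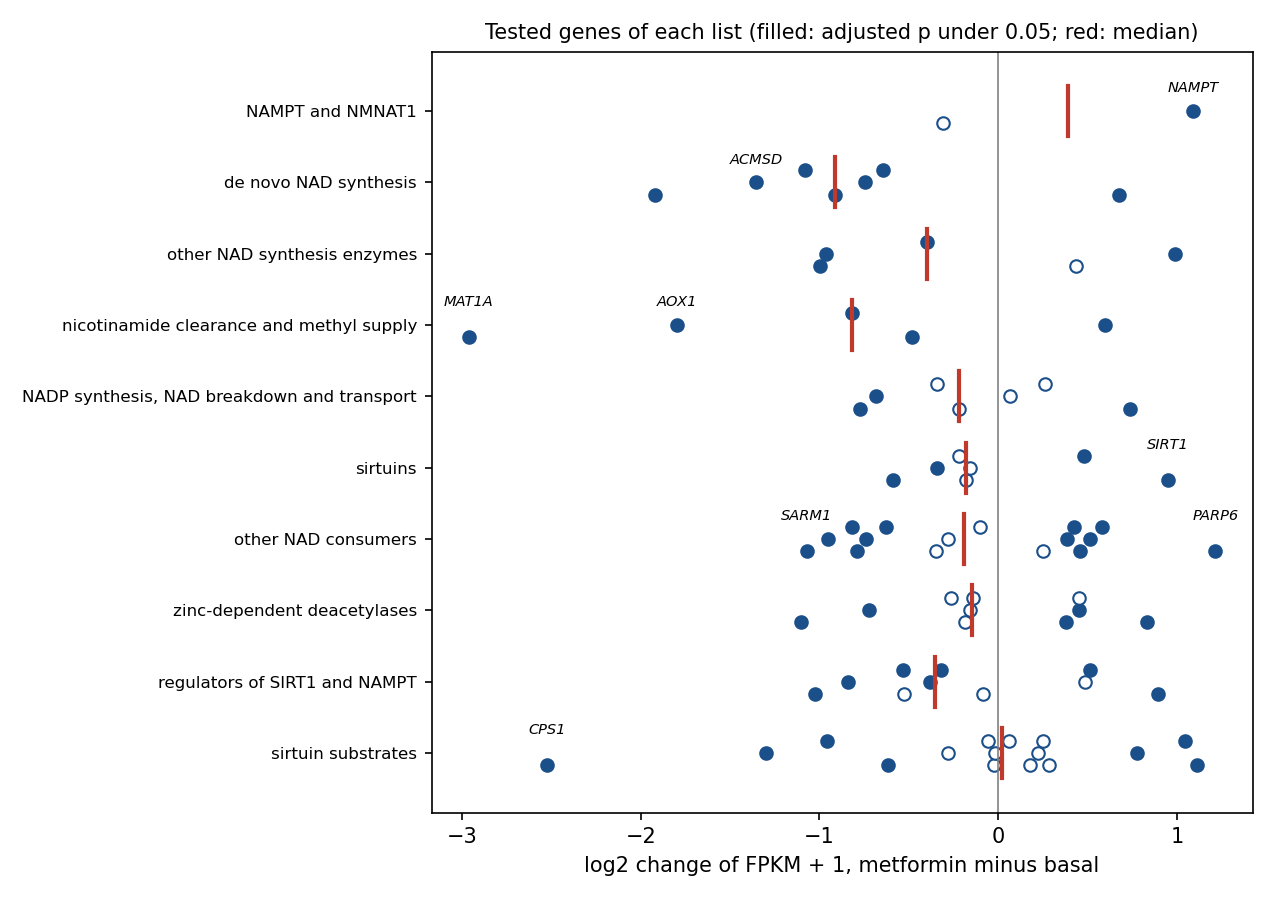
Log2 change of FPKM + 1 (metformin minus basal) for each tested gene by list, filled where adjusted p was under 0.05, with the median of each list as a red bar. The de novo NAD list (median -0.91) and the clearance and methyl supply list (median -0.82) lie mostly left of 0, whereas NAMPT (1.09) and SIRT1 (0.95) lie to the right.

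Known regulators of SIRT1 and NAMPT gave 2 rises and 5 falls among 10 tested genes (70% called, against 43.9% of all genes tested). Their median log2 change was -0.35. E2F1, a cell cycle factor reported to act on the SIRT1 promoter, averaged 1.48 ± 0.521 FPKM with metformin and 4.11 ± 1.30 FPKM in basal cells (SD, n = 4 each; log2 change -1.03, limma adjusted p = 0.00210). PPARA, the fatty acid receptor, averaged 11.4 ± 1.59 FPKM with metformin and 21.5 ± 5.16 FPKM in basal cells (-0.84, adjusted p = 0.00307). PRKAA2, a catalytic subunit of the energy sensor AMPK, averaged 5.44 ± 2.54 FPKM with metformin and 2.26 ± 0.258 FPKM in basal cells (0.89, adjusted p = 0.0125); its call ended without the block (0.0579) and without preparation 2 (0.0508). PRKAA1, the other catalytic subunit and the more abundant of the pair, averaged 30.7 ± 1.69 FPKM with metformin and 40.7 ± 6.49 FPKM in basal cells and fell (-0.38, adjusted p = 0.0323); it was named after its value was seen. CLOCK and ARNTL, the pair that drives NAMPT in the mouse clock, and CCAR2, an inhibitor of SIRT1, were named after their values were seen. Their log2 changes were 0.51, 0.49 and -0.32, with adjusted p of 0.0181, 0.0505 and 0.0348. Without the block 0 regulators rose and 3 fell. Leaving out preparations 1 to 4 in turn gave 1, 0, 3 and 2 rises and 3, 4, 2 and 2 falls.

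Among 16 tested genes for proteins that sirtuins act on, 3 rose and 4 fell, with a median log2 change of 0.02. These calls were 43.8% of the list, against 43.9% of all genes tested. PPARGC1A averaged 15.7 ± 6.30 FPKM with metformin and 6.84 ± 2.02 FPKM in basal cells (SD, n = 4 each; log2 change 1.04, limma adjusted p = 0.00207). CPS1, a substrate of SIRT5, averaged 25.1 ± 26.8 FPKM with metformin and 126.8 ± 107.9 FPKM in basal cells (-2.52, adjusted p = 0.000848). GLUD1, the glutamate dehydrogenase on which SIRT3 and SIRT4 act, averaged 368.3 ± 86.8 FPKM with metformin and 711.5 ± 147.8 FPKM in basal cells (-0.96, adjusted p = 0.00144). These are transcript levels and say nothing of acylation. Without the block 2 rose and 2 fell, and under the median of ratios 5 rose. The zinc-dependent deacetylases, which need no NAD, gave 3 rises and 2 falls among 10 tested genes, near the background of 43.9%, with a median log2 change of -0.15. HDAC8 rose (log2 change 0.84, adjusted p = 0.0114), and HDAC1 (-0.73, adjusted p = 0.00305) and HDAC10 (-1.10, adjusted p = 0.00354) fell. Rises numbered 1 without the block, without the filter and without preparation 2 or 4.

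The genes whose levels over the 8 libraries were most like that of NAMPT were MED28, a Mediator subunit (Pearson r = 0.998), MAT2B, the regulatory subunit of methionine adenosyltransferase (0.988), and CD3G (0.985). They are the 3 highest of 11052 genes with a symbol, and all points share the preparations and the treatment groups, so high values are common: 626 genes had an r of at least the 0.893 of SIRT1. MED28 averaged 93.1 ± 8.59 FPKM with metformin and 67.9 ± 4.40 FPKM in basal cells (SD, n = 4 each). MAT2B averaged 73.8 ± 8.20 FPKM with metformin and 48.5 ± 5.17 FPKM in basal cells, and CD3G, a T cell receptor subunit, 6.01 ± 1.44 FPKM with metformin and 0.864 ± 0.555 FPKM in basal cells. CD3E, from the list of leukocyte and macrophage markers, was named after its value was seen. It averaged 1.32 ± 0.870 FPKM with metformin and 1.81 ± 0.784 FPKM in basal cells. CD3E was thus lower with metformin, in 4 of 4 preparations, and was not called (limma adjusted p = 0.123). A like search for NNMT was not made.

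Markers of hepatocytes were present, with ALB at 573.9 to 2848 FPKM in metformin libraries and 672.4 to 3347 FPKM in basal libraries. Other cell types were present too. COL1A1, a fibroblast and stellate marker, lay at 178.2 to 353.3 FPKM with metformin and 234.1 to 606.9 FPKM in basal cells. The endothelial PECAM1 lay at 32.0 to 141.6 FPKM with metformin and 29.9 to 151.6 FPKM in basal cells, and the leukocyte PTPRC at 14.5 to 36.9 FPKM with metformin and 11.4 to 39.8 FPKM in basal cells. KRT19 and HBB were not analysed here. No marker with a row was at 0 in all libraries. Of the tested markers, 5 of 9 hepatocyte genes fell and 1 rose, 8 of 9 stellate and fibroblast genes fell, 3 of 7 endothelial genes fell, and 3 of 8 leukocyte and macrophage genes fell and 1 rose. Of 4 tested cholangiocyte genes 1 fell, KRT7 (log2 change -0.93), and 1 rose, SOX9 (1.31). Of 4 erythroid genes 0 were called with limma, and 0 had an unadjusted p under 0.05. Against 43.9% of all genes tested, 66.7% of hepatocyte and 88.9% of stellate and fibroblast genes were called. The shares of endothelial (42.9%), leukocyte and macrophage (50%) and cholangiocyte genes (50%) lay near that background. The hepatocyte gene that rose was APOB, named after its value was seen (log2 change 1.24, limma adjusted p = 0.00193). It lay at 298 to 594 FPKM with metformin and 172 to 245 FPKM in basal cells. The lowest p among hepatocyte genes belonged to HNF4A (log2 change -2.10), AFP (-1.11) and APOA1 (-1.11), and among stellate and fibroblast genes to LUM (-0.64), ACTA2 (-0.77) and THY1 (-0.67). The lowest p among endothelial genes belonged to TEK (-0.58), CDH5 (-0.42) and KDR (-0.58), and among leukocyte and macrophage genes to CSF1R (-0.58), CD68 (0.72) and CD14 (-0.49). Without the block 1 hepatocyte marker, 0 stellate and fibroblast, 0 endothelial, 0 leukocyte and macrophage and 0 cholangiocyte markers fell. Falls of stellate and fibroblast markers numbered 8, 5, 3 and 4 without preparations 1 to 4 in turn, those of endothelial markers 4, 1, 1 and 1, and those of leukocyte and macrophage markers 2, 2, 1 and 1. Summed hepatocyte markers lay at 10460 to 26210 FPKM with metformin and 19560 to 31210 FPKM in basal cells and were higher with metformin in 0 of 4 preparations. The largest part of that sum was SERPINA1, at means of 10124 FPKM with metformin and 12768 FPKM in basal cells. It was not called (limma adjusted p = 0.0560) and was named after its value was seen. Summed stellate and fibroblast markers lay at 716.0 to 1973 FPKM with metformin and 1688 to 3454 FPKM in basal cells, also higher with metformin in 0 of 4 preparations. Summed leukocyte and macrophage markers lay at 937.9 to 1486 FPKM with metformin and 609.9 to 1363 FPKM in basal cells and were higher with metformin in 4 of 4 preparations. CD68 carried that difference: without it the other 7 summed to 269.1 to 447.7 FPKM with metformin and 342.2 to 567.2 FPKM in basal cells, lower in 4 of 4 preparations, and the call of CD68 ended without the block (limma adjusted p = 0.194). The part of these shifts in the changes of NAMPT and the sirtuins was not tested.

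**Figure D5:**
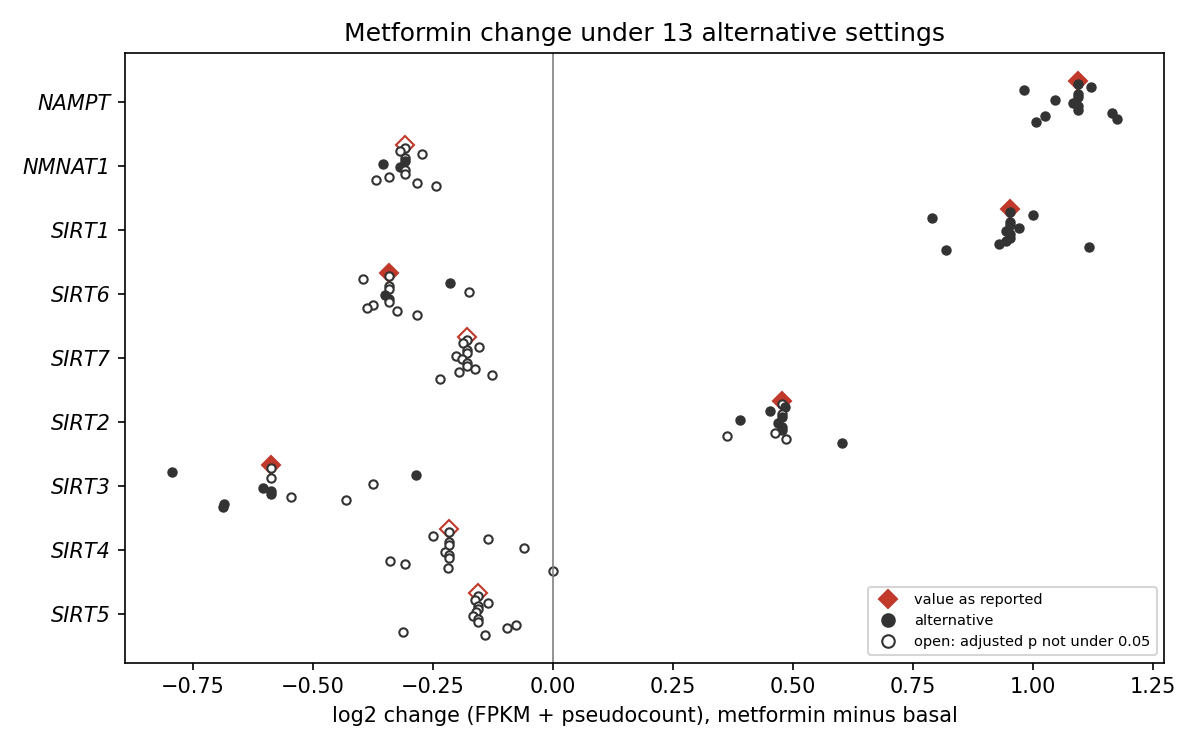
Log2 change (metformin minus basal) of each gene under the reported setting (red diamonds) and up to 13 alternatives (dark circles), open where adjusted p was not under 0.05. NAMPT and SIRT1 stayed filled throughout, at 0.98 to 1.17 and 0.79 to 1.12, whereas SIRT2, SIRT3 and SIRT6 mix filled and open symbols.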

How the data were processed

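RNA was measured in 8 libraries, 4 with metformin and 4 basal, as polyadenylated RNA per the labels' protocols. The authors deposited FPKM values per gene and library, made with Cufflinks on Oar_v3.1, per the submitters' processing notes; no aligner or annotation release is stated there. The authors also deposited group means, a signed fold change (a score, negative where metformin was lower), p-values and, for part of the rows, q-values, per the file headers. A placeholder in 4 cells, none of them in a gene described here, was treated as missing. Library FPKM summed to 1024543 to 1257764; depth in reads is unknown, so no counting interval is given.

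Genes at 1 FPKM or more in at least 4 libraries (13141) entered a linear model of log2(FPKM + 1), fitted in R 4.3.3 by limma 3.58.1 with a mean-variance trend, moderated variances (prior df 4), the preparation as a block and Benjamini-Hochberg adjustment over all 13141, 2-sided. The labels number the preparations and the deposited table is named as paired; deviations from the group means correlated between the libraries of 1 preparation with r of 0.489 to 0.585. The fit was tested on simulated data in which far fewer genes changed than were called here, so its behaviour under so broad a change was not tested.

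The members and the 14 further lists (134 entries, 123 with a row) were chosen with earlier results of these data known. Genes named are all members, up to 3 called genes with the lowest adjusted p per further list, the defining cell type markers and the 3 genes most like NAMPT; a few others are marked as named after their values were seen. Alternatives were 2 pseudocounts, 2 filters, 2 rescalings, 2 variance settings, no block, and each preparation left out. No sequence or coordinate is printed, since no sequence of the files' build was used here.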

Additional observations from a re-analysis of the deposited data

Results flagged for a closer look

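In groups of 4 libraries, 6 of 50 groups of values had a highest or lowest library far from the other 3; about 5% of groups would by chance, and the values overlap, since shares and ratios reuse the same FPKM. Of these, 5 belong to the metformin library of preparation 4. There SIRT1 was at 40.1 FPKM, its share of the summed sirtuin FPKM was 23.2%, and the ratio of SIRT1 to SIRT6 was 7.71. In the same library the share of SIRT4 was 2.36%, the lowest of the 4 metformin libraries, and the ratio of NAMPT to NMNAT1 was 2.81, the highest. The sixth was SIRT7 in the metformin library of preparation 1, at 17.3 FPKM, the lowest of 4.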

How the results depend on the processing

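NAMPT and SIRT1 kept their direction and call under all 13 alternatives. The number of the 9 genes that fell was 2. It was 0 without the replicate block and without the filter, and 1 with a pseudocount of 0.1, a mean FPKM of at least 5, quantile normalization or robust moderation, 3 with the median of ratios, where NMNAT1 was added, and 0 to 1 on leaving out a preparation. With quantile normalization and with a mean FPKM of at least 5 the gene called lower was NMNAT1, and neither SIRT3 nor SIRT6 was called. SIRT6 was the call lost most often, in 10 of 13 alternatives. The number that rose was 3, 2 without the block or the filter, and 2 to 3 on leaving out a preparation. Of all genes tested 2605 were called higher and 3164 lower; these counts were 1272 and 1246 in the unblocked fit, and 1679 to 2307 higher and 1995 to 2923 lower on leaving out a preparation. No log2 change of the 9 genes reversed. Among pathway genes named by the rule, the calls of HAAO, KMO, PARP14 and NOCT ended without the block alone, and those of NMRK2, NUDT13 and PRKAA2 also on leaving out a preparation. The cause of these losses was not tested. SIRT3 had no value with a mean FPKM of at least 5, since its mean was lower. Depth is unknown, and values of a few FPKM, as of SIRT3 and SIRT6, carry the least signal.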
